A study of Mus musculus with 4 samples.

Results

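Small nucleolar RNAs (snoRNAs) were read from microarrays of mouse lung through 62 genes whose symbol starts with Snora or Snord and a digit, out of 30142 genes that had a feature with a single gene symbol. Of these, 18 belonged to the H/ACA class (Snora) and 44 to the C/D class (Snord), and where 1 symbol had several features the feature with the highest mean was used. A floor on the mean log2 signal, set at its 40th percentile (5.82), left 59 snoRNAs, 17 H/ACA and 42 C/D, among 18084 genes. The remaining 3 snoRNAs, Snora35, Snord85 and Snord88c, had log2 signals between 4.11 and 5.63 in the 4 pools and are not described further.

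The lungs came from male C57BL mice, an inbred strain with no stated mutation or transgene. The smoke groups had breathed mainstream cigarette smoke for 4 weeks, ending at 14 weeks of age, or for 2 weeks, ending at 12 weeks of age. The control groups were age-matched mice in clean air, for the 4-week and for the 2-week experiment. Smoke was given for 1 h per day on 5 days per week from 10 weeks of age. Each group was 1 pool of lungs on 1 array, made from 4 mice after 4 weeks of smoke and from 5 mice in each other group. Differences between single pools have no p-value, since no pool was repeated. Where a p-value is given, it comes from a limma model over all 4 arrays with a term for smoke and a term for duration, and its error combines how far the effect differed between the other pair of groups (1 degree of freedom) with a spread estimated across all genes (5.38 degrees of freedom).

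SnoRNAs are short nuclear RNAs that pair with ribosomal RNA and other RNAs. C/D snoRNAs bind fibrillarin and guide the methylation of ribose, while H/ACA snoRNAs bind dyskerin and guide the conversion of uridine to pseudouridine, and a few of either class are needed to cut the ribosomal precursor. Most mammalian snoRNAs are trimmed from introns of other genes, often genes of ribosomal proteins or of noncoding RNAs, and are released when the intron is removed from its host transcript.

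A fragment of an H/ACA snoRNA is shown in the first sequence below, because it carries the box that names the class. It is the mouse Mir3084-2 hairpin from RefSeq (GRCm38.p6, chr19:60774329-60774397, minus strand), and the capitals mark the 56 bases that are also annotated as Snora19, within the span of the translation factor gene Eif3a. The last ACA of these bases stands 3 bases before their end, the usual place of the box in this class. The annotation counts 56 nt for Snora19, against a median of 120.5 nt over the 18 H/ACA snoRNAs (range 56 to 205 nt) and 68 nt over the 44 C/D snoRNAs (range 28 to 221 nt).

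Mir3084-2: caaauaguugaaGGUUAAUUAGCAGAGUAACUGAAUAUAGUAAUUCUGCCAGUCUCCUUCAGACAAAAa

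The hosts are the genes in whose RefSeq span a snoRNA lies, with strand and introns not checked. Of the 62 snoRNAs, 53 lay in 1 gene, 6 in 2 genes, and Snord118, Snord13 and Snord89 in none. Host genes of snoRNAs are known for transcripts that begin with a run of pyrimidines. The annotated starts of 3 hosts, chosen from those of snoRNAs described below, are therefore printed here. They are Snhg12 around Snora16a (chr4:132308668-132308697, plus strand), Rpl13a around Snord35a (chr7:45128726-45128755, minus strand) and Tpt1 around Snora31 (chr14:75845246-75845275, plus strand). Each line holds 10 bases before the start and 20 from it, from RefSeq (GRCm38.p6), and capitals mark a run of at least 6 C or T that begins within 10 bases of the start.

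Snhg12: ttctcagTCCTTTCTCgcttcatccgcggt

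Rpl13a: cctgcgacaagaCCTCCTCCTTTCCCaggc

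Tpt1: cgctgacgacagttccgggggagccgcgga

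The runs were 9 bases long in Snhg12 and 14 bases long in Rpl13a, and Tpt1 had no run of at least 6 in this window. Of other hosts read but not printed, Snhg3, Ncl, Nop58 and Rpl37 had none either, and a window of Zbed3 had a run of 6 bases. Among hosts with a window, 12 of 37 (32.4%) had such a run, beside 6238 of 27025 genes (23.1%). These are letters at annotated starts, and no start was measured here.

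The lung label fitted the arrays: Scgb1a1 and Sftpc, made by club and type II cells, had log2 signals of 19.63 to 19.69 and 18.85 to 18.97 in the 4 pools. Mmp12, a macrophage protease known to be raised by smoke, was 25.7-fold higher with smoke at 4 weeks and 9.96-fold higher at 2 weeks. Over all genes 265 passed the smoke test (adjusted p under 0.05, Benjamini-Hochberg over 18084 genes). A feature cannot tell a mature snoRNA from the same sequence inside an unspliced host transcript, and the RNeasy Mini columns of the labels' protocols are known to retain short RNA poorly, so how far a value reflects mature snoRNA was not tested. Because these are bulk samples, fewer cells of a type and less RNA per cell cannot be told apart. The signals of different features are not comparable as amounts, and levels are compared only within a snoRNA.

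The question of the design was what smoke does to lung RNA. None of the snoRNAs passed the smoke test: 0 of 59, beside 1.47% of all genes tested, and adjusted p-values (limma) lay between 0.146 and 0.988. At an unadjusted p under 0.05 there were 8 of 59 (13.6%), beside 11.6% of all genes. The median smoke difference of the 59 snoRNAs was 0.06 log2 at 4 weeks and −0.03 log2 at 2 weeks, beside −0.02 and 0.01 over all genes. By class, it was 0.06 log2 for H/ACA and 0.05 log2 for C/D snoRNAs at 4 weeks, with 10 of 17 and 27 of 42 above 0. At 2 weeks it was −0.13 log2 for H/ACA and 0.01 log2 for C/D snoRNAs, with 2 of 17 and 21 of 42 above 0. Over all genes, 8403 of 18084 were above 0 at 4 weeks and 9285 of 18084 at 2 weeks. The difference between the classes was not tested.

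Snord13 had the smallest p-value of the 59. It is an unusual C/D snoRNA that has its own promoter and that, in human cells, guides the acetylation of a cytidine of the small ribosomal subunit's RNA. Its log2 signal was 8.96 and 9.02 in the smoke pools of 4 and 2 weeks, against 9.31 and 9.69 in the control pools of 4 and 2 weeks. Both smoke pools lay below both control pools. The fitted difference was −0.51 ± 0.12 log2 (SE, 4 arrays), with an adjusted p of 0.146 (limma), which missed the threshold. A second feature of Snord13 differed by −0.42 at 4 weeks and by −0.60 at 2 weeks, beside −0.34 and −0.67 for the feature used.

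Among snoRNAs that act in the cleavage of the ribosomal precursor, differences with smoke on the features used were smaller than those of Snord13 or went both ways. Snora73a and Snora73b, H/ACA snoRNAs of Snhg3 that act in the maturation of the small subunit's RNA, differed by 0.12 and 0.25 log2 at 4 weeks and by −0.33 and −0.36 log2 at 2 weeks. A feature annotated to both Snora73a and Snhg3 differed by −0.14 log2 at 4 weeks and −0.17 log2 at 2 weeks. Snord14a and Snord14e, copies of a C/D snoRNA with a role in the same step, differed by 0.05 and −0.11 log2 at 4 weeks and by −0.09 and −0.05 log2 at 2 weeks. Snord118, needed for the RNAs of the large subunit, differed by −0.17 log2 at 4 weeks and 0.20 log2 at 2 weeks. Its second feature, with a mean log2 signal of 4.74 and so under the floor, differed by −0.97 and −0.51 log2, so its features disagree. Of the 12 snoRNAs on the list of precursor processing, which holds Snord13 too, 6 were measured, and 0 of the 6 passed the test.

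The snoRNAs with the most positive fitted smoke differences, of like sign in both experiments, included several C/D snoRNAs that lie in ribosomal protein genes. Snord43, which lies in Rpl3, had log2 signals of 8.42 and 7.89 in the smoke pools of 4 and 2 weeks, against 7.96 and 7.64 in the matching control pools. Each smoke pool was above its own control, while the 2-week smoke pool was below the 4-week control. The fitted difference of Snord43 was 0.35 ± 0.108 log2 (SE, 4 arrays; limma adjusted p = 0.257). Snord42a, in Rpl23a, had 16.09 and 15.84 in the smoke pools of 4 and 2 weeks and 15.88 and 15.36 in the matching controls, with a fitted difference of 0.34 ± 0.114 (limma adjusted p = 0.302). With 1 pool left out, the difference was as low as 0.09 log2 for Snord43 (without the 4-week smoke pool) and 0.08 log2 for Snord42a (without the 2-week control pool). Snord16a, in Rpl4, differed by 0.34 log2 at 4 weeks and 0.19 log2 at 2 weeks, and Snord83b, also in Rpl3, by 0.08 and 0.36 log2. Snord92, in Wdr43, differed by 0.27 and 0.05 log2.

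In 2 snoRNAs, Snord35b and Snord90, both smoke pools lay above both control pools, which is 3.39% of the 59 beside 15.7% of all genes. Snord90 had 7.04 and 7.35 in the smoke pools of 4 and 2 weeks, against 6.81 and 7.04 in the matching controls, and 0.27 ± 0.101 as its fitted difference (limma adjusted p = 0.374). Snord35b had 9.76 and 9.89 with smoke, against 9.74 and 9.42 without it, so that its margin at 4 weeks was only 0.02 log2.

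Both smoke pools lay below both control pools in 10 snoRNAs (16.9%, beside 16.8% of all genes), 5 of 17 H/ACA (29.4%) and 5 of 42 C/D (11.9%): Snora20, Snora30, Snora68, Snora75, Snora7a, Snord13, Snord37, Snord66, Snord87 and Snord91a. The lower fitted differences of this set, after Snord13, were those of Snora20 in Tcp1 (−0.28 ± 0.103 log2, limma adjusted p = 0.358), Snord66 in Eif4g1 (−0.27 log2) and Snord87 in Snhg6 and Mcmdc2 (−0.25 log2). Snord91a, in Tsr1 and Srr, differed by −0.24 log2, and Snora75, in the nucleolin gene Ncl, by −0.20 log2. Snord49b, in 2410006H16Rik, had a fitted difference of −0.24 log2 that came from 4 weeks (−0.47) and not from 2 weeks (−0.02). Snord73a, in Rps3a1, had −0.37 ± 0.146 log2 (limma adjusted p = 0.402), with −0.10 at 4 weeks and −0.63 at 2 weeks. Leaving out the 2-week control pool turned the effect of Snord73a to 0.05 log2.

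**Figure D1:**
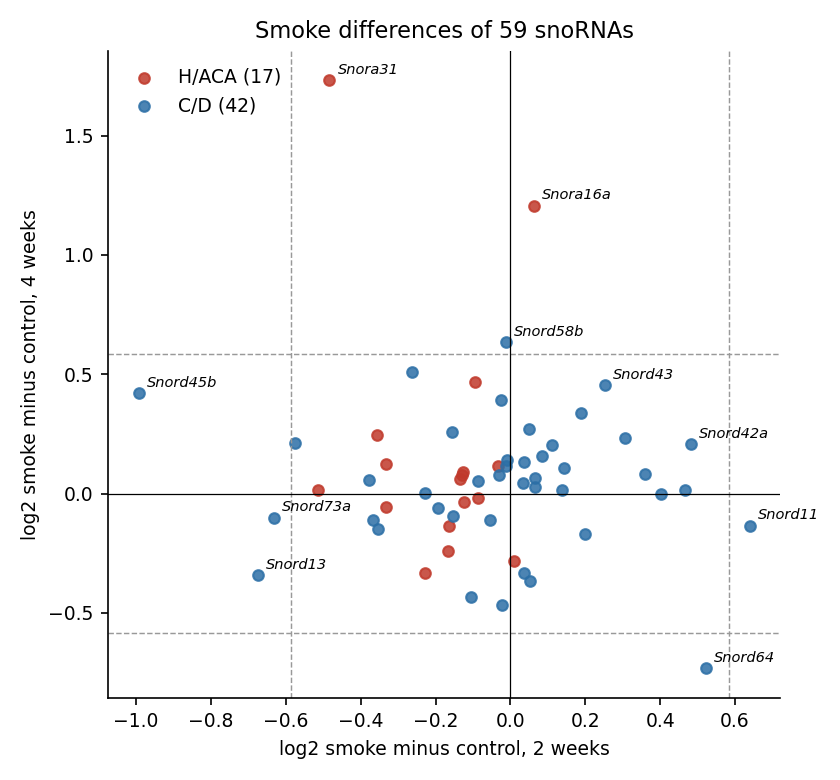
Log2 smoke minus control of each of the 59 snoRNAs at 2 weeks (horizontal) and at 4 weeks (vertical), 1 pool per group; red points are H/ACA and blue points C/D snoRNAs, and dashed lines mark 1.5-fold. No point lies beyond 1.5-fold the same way at both durations; Snora31 and Snora16a stand apart at 4 weeks, at 1.73 and 1.21.

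Within single experiments, 4 snoRNAs were at least 1.5-fold apart at 4 weeks (6.78% of 59, beside 4.04% of all genes) and 4 others at 2 weeks (6.78%, beside 3.04%). None of the 59 was 1.5-fold apart the same way at both, where 1.47% of all genes were. At 4 weeks Snora31, Snora16a and Snord58b were higher with smoke (5.08%, beside 2.53% of all genes) and Snord64 was lower (1.69%, beside 1.5%). At 2 weeks Snord11 was higher with smoke (1.69%, beside 1.82%), and Snord45b, Snord13 and Snord73a were lower (5.08%, beside 1.22%). Signs were alike at both durations in 31 of the 59, of which 16 were higher and 15 lower. This count was not made over all genes, so it has no background to be read against. Across the 59 snoRNAs the smoke differences of the 2 durations, which share no array, had a Pearson r of −0.133 and a Spearman rho of 0.047, beside 0.433 and 0.227 over 18084 genes; the points share their arrays within a duration and are not independent.

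Snora31, an H/ACA snoRNA of the tumour protein gene Tpt1, gave the widest 4-week smoke difference. Its log2 signal was 9.79 and 10.06 in the smoke pools of 4 and 2 weeks, against 8.05 and 10.55 in the matching control pools. The low pool was the 4-week control, while the other 3 lay between 9.79 and 10.55. Smoke minus control was therefore 1.73 log2 (3.32-fold higher) at 4 weeks and −0.48 log2 at 2 weeks, and the fitted effect was 0.62 ± 0.45 log2 (SE, 4 arrays; limma adjusted p = 0.716).

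Snora16a, an H/ACA snoRNA of the noncoding host gene Snhg12, had the same shape. Its log2 signal was 14.39 and 14.46 with smoke at 4 and 2 weeks, against 13.19 and 14.40 in clean air at 4 and 2 weeks. Again the 4-week control alone was low, and the other 3 pools lay between 14.39 and 14.46. The fitted smoke effect was 0.63 ± 0.248 log2 (limma adjusted p = 0.392), or 0.03 log2 without the 4-week control pool, and smoke minus control was 1.21 log2 (2.31-fold higher) at 4 weeks and 0.06 log2 at 2 weeks. These were the only snoRNAs of the 59 at least 1.5-fold lower in the 4-week control pool than in each of the other 3 pools (3.39%, beside 0.122% of all genes). Set against the 2-week control instead, the 4-week smoke pool was −0.0038 log2 apart for Snora16a and −0.76 log2 apart for Snora31, and 15 of the 59 snoRNAs were past 1.5-fold (25.4%, beside 7.73% of all genes).

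Other snoRNAs also rested on 1 pool. Snord58b, in Rpl17, had 14.61 and 13.85 with smoke at 4 and 2 weeks, against 13.97 and 13.86 in clean air. Its 4-week smoke pool stood at least 1.5-fold above each of the others, which 1 of 59 snoRNAs did (1.69%, beside 0.431% of all genes). Snord45b, in Rabggtb, had 8.61 and 8.91 in the smoke pools of 4 and 2 weeks and 8.19 and 9.90 in the matching controls, with the 2-week control at least 1.5-fold above each other pool. The 2-week control was likewise the high pool of Snord73a, with 8.45 and 8.76 with smoke and 8.55 and 9.39 without (2 of 59 snoRNAs, 3.39%, beside 0.453% of all genes). Snord11, which lies in the gene of the snoRNP protein Nop58, was the mirror case: 10.77 and 10.55 with smoke and 10.90 and 9.91 without, the 2-week control being the low pool (1.69% of the 59, beside 0.464% of all genes).

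Snord64, a C/D snoRNA of the imprinted Snhg14 transcript with no known target in ribosomal RNA, had 6.16 and 6.63 in the smoke pools of 4 and 2 weeks, against 6.89 and 6.11 in the matching controls. Its smoke difference was −0.73 log2 at 4 weeks and 0.52 log2 at 2 weeks. Snord98, in Ccar1, differed by 0.21 log2 at 4 weeks and −0.57 log2 at 2 weeks, just short of 1.5-fold. Snord71, in Ap1g1 and Gm17344, differed by 0.51 and −0.26 log2, and Snord110, in Nop56, by −0.37 and 0.05 log2. Of the snoRNAs with the brightest features, Snord104 differed by 0.26 and −0.16 log2, Snord69, in the nucleostemin gene Gnl3, by 0.12 and −0.01 log2, and Snord61, in Rbmx, by 0.08 and −0.03 log2. Among the brightest H/ACA features, Snora47 differed by 0.47 and −0.09 log2 and Snora21, in Rpl23, by 0.11 and −0.03 log2.

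Genes that make and use snoRNAs were read from lists, and 0 genes of any list passed the smoke test, which at 1.47% of all genes is near the background for lists of this size. Of the C/D core proteins, fibrillarin (Fbl) differed by −0.04 log2 at 4 weeks and −0.08 at 2 weeks, and Nop58 by 0.15 and −0.10. Of the H/ACA core proteins, dyskerin (Dkc1) differed by −0.15 and 0.05 log2, Gar1 by 0.20 and −0.06, Nhp2 by −0.01 and 0.28, and Nop10 by −0.04 and −0.14. Nop56 and Snu13, also of the C/D core, had no feature with a single symbol. Over all genes only 4.04% at 4 weeks and 3.04% at 2 weeks were past 1.5-fold, so few genes of a short list would be. The 6 measured core proteins were all within 1.5-fold at both durations. The same held for 12 measured genes of snoRNP assembly, from Rpap3 (fitted effect −0.17 log2) and Tgs1 (−0.17) to Pih1d1 and Ruvbl2 (0.08 each), and for 12 genes of snoRNA trimming and intron turnover, from the La protein gene Ssb (−0.18) and Lsm6 (−0.14) to Rnaseh1 (0.02) and Zcchc8 (0.06). Of 16 tested genes on a list of snoRNA hosts, the extremes were Hspa9 (−0.20), Snhg9 (−0.18), Snhg11 (0.13) and Eif4a1 (0.14). Of 28 genes of ribosome biogenesis, they were Taf1a (−0.27), Dimt1 (−0.17), Polr1c (0.14) and Polr1d (0.14).

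The pools of the 2 durations differed in age as well as in length of exposure or housing, and a comparison of 4 with 2 weeks cannot tell these apart. The comparison over all 4 pools, with the duration term and the order of the pools, was added after the values had been seen. Among the unexposed pools, 12 of 59 snoRNAs were at least 1.5-fold apart between 4 and 2 weeks (20.3%), beside 4.09% of all genes. Of these, 9 were lower at 4 weeks (15.3%, beside 2.25% of all genes): Snora16a, Snora19, Snora31, Snora47, Snora73a, Snora73b, Snord45b, Snord71 and Snord73a. The other 3, Snord11, Snord35a and Snord64, were higher (5.08%, beside 1.85%). In the smoke pools 3 of 59 were past 1.5-fold (5.08%, beside 3.14% of all genes), with Snord4a and Snord58b higher at 4 weeks (3.39%, beside 1.35%) and Snord71 lower (1.69%, beside 1.79%).

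The classes are given separately here. In H/ACA snoRNAs both 4-week pools lay below both 2-week pools in 7 of 17 (41.2%, beside 21.7% of all genes) and above them in 2 of 17 (11.8%, beside 22.4%). The 7 include Snora16a, whose 4-week smoke pool was only −0.0038 log2 from the 2-week control. They also include Snora73a and Snora73b, which share the host Snhg3. In C/D snoRNAs both 4-week pools lay above both 2-week pools in 25 of 42 (59.5%) and below them in 3 of 42 (7.14%). The median 4-week minus 2-week difference in smoke pools was −0.05 log2 for H/ACA and 0.19 log2 for C/D snoRNAs, and in control pools it was −0.17 log2 for H/ACA and 0.23 log2 for C/D snoRNAs. Over all genes these medians were 0.00 log2 in smoke pools and 0.01 log2 in control pools. No test of the class difference was made, since snoRNAs of a class share arrays and often a host. In limma's duration term 0 of 18084 genes passed (0.0%), snoRNAs included, while an unadjusted p under 0.05 was found in 30 of 59 snoRNAs (50.8%) and in 15.7% of all genes.

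**Figure D2:**
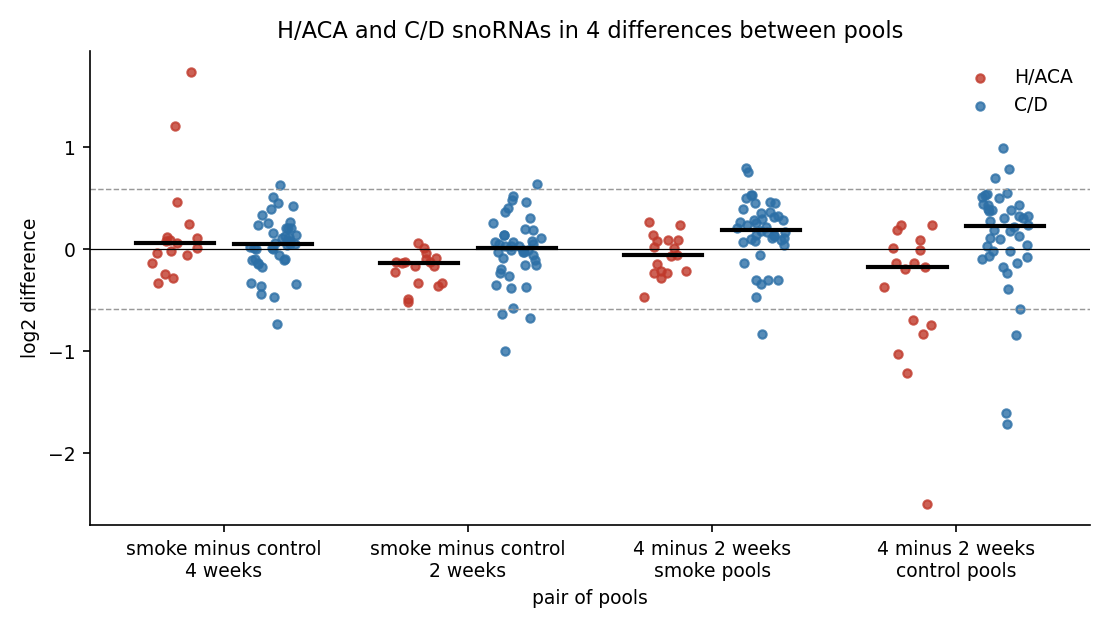
Log2 differences of 17 H/ACA (red) and 42 C/D (blue) snoRNAs in 4 pairs of pools, 1 point per snoRNA with sideways scatter for legibility only; black bars are medians and dashed lines mark 1.5-fold. In both 4-week minus 2-week differences the C/D median lies above 0 (0.19 and 0.23) and the H/ACA median below it (−0.05 and −0.17).

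Snord71 had the smallest p-value for duration among the 59. Its log2 signal was 14.88 and 14.37 in the 4-week pools with smoke and in clean air, against 15.70 and 15.97 in the 2-week pools with smoke and in clean air. Both 4-week pools were low, by −0.83 log2 in smoke and −1.60 log2 in controls. The fitted duration difference was −1.21 ± 0.183 log2 (SE, 4 arrays; limma adjusted p = 0.103).

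Snora47, in Zbed3, had 12.64 and 12.17 in the 4-week pools with smoke and in clean air, against 13.11 and 13.20 in the 2-week pools. Its fitted difference was −0.75 ± 0.15 log2 (limma adjusted p = 0.115). The Snhg3 pair gave like differences: Snora73a had 10.78 and 10.66 at 4 weeks, against 11.02 and 11.35 at 2 weeks, and Snora73b had 11.42 and 11.17 at 4 weeks, against 11.64 and 12.00 at 2 weeks. In both, the smoke pools were nearer to each other than the control pools. Snora19 was 0.74 log2 lower at 4 weeks than at 2 weeks between controls and 0.21 log2 lower between smoke pools. A feature annotated to both Snora19 and a Mir3084 gene held the same 4 values as the Snora19 feature, so these are 1 measurement with 2 names.

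On the other side, Snord82, a C/D snoRNA of the nucleolin gene, had 14.63 and 14.53 in the 4-week pools with smoke and in clean air, against 14.13 and 13.99 in the 2-week pools. It was higher at 4 weeks by 0.50 log2 in smoke and 0.54 log2 in controls, with 0.52 ± 0.101 as the fitted difference (limma adjusted p = 0.111). Snord72, in Rpl37, had 11.79 and 11.66 at 4 weeks, against 11.27 and 11.23 at 2 weeks, and Snord70, in Nop58, had 12.90 and 12.74 at 4 weeks, against 12.43 and 12.35 at 2 weeks. Snord4a, in Rpl23a, was 0.80 log2 higher at 4 weeks in smoke and 0.38 log2 higher in controls. With a floor at the 60th percentile, 331 genes passed the duration term, and with them Snora47 (limma adjusted p = 0.0415), Snord71 (0.0255) and Snord82 (0.0434).

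Snord35a belongs to the snoRNAs of Rpl13a, which are known from rodent cells for a role in the response to lipid overload. It was the only 1 of 4 on that list with a feature of its own. Its values were 12.78 and 12.78 in the 4-week pools with smoke and in clean air, against 12.49 and 12.08 in the 2-week pools. The 2-week control pool was the low one, and the fitted duration difference was 0.49 ± 0.129 log2 (limma adjusted p = 0.162).

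**Figure D3:**
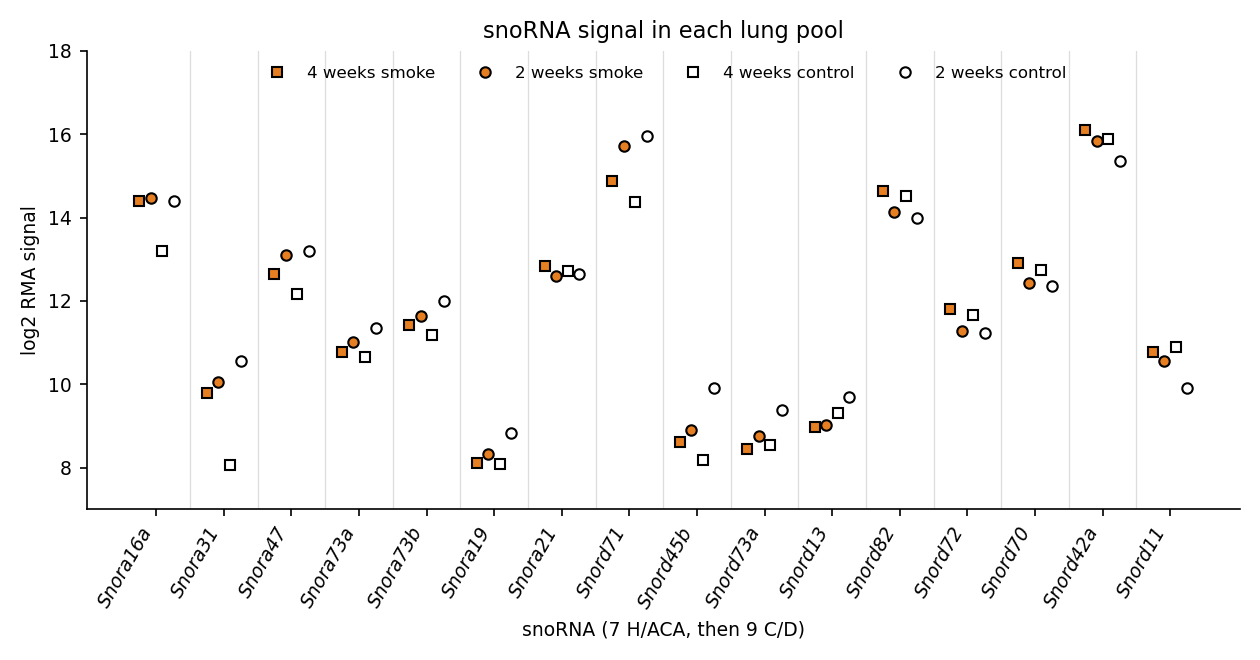
Log2 signal of 16 snoRNAs, 7 H/ACA and then 9 C/D, in each of the 4 lung pools; squares are 4-week and circles 2-week pools, orange filled is smoke and open is control, 1 array per symbol, so there are no error bars. Snord71 and Snora47 are low in both 4-week pools, Snord82 and Snord72 are high in both, and Snora16a and Snora31 are low in the 4-week control pool alone.

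The 4-week minus 2-week differences of the smoke pools and of the control pools share no array. Across the 59 snoRNAs they had a Pearson r of 0.602 and a Spearman rho of 0.592, beside 0.392 and 0.365 over all 18084 genes. Within the classes r was 0.673 over 17 H/ACA and 0.537 over 42 C/D snoRNAs. These are descriptions over features that share arrays, and the array pairs may share their processing day, which the labels do not give. Annotated length went with the control difference only weakly (Pearson r −0.234, Spearman rho −0.297 over 59). Within the classes rho was −0.021 for H/ACA and −0.077 for C/D snoRNAs. Mean log2 signal had a rho of −0.547 with the control difference in H/ACA and 0.207 in C/D snoRNAs. With the 4-week smoke difference, which shares the 4-week control pool, rho was 0.721 in H/ACA and 0.098 in C/D snoRNAs.

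**Figure D4:**
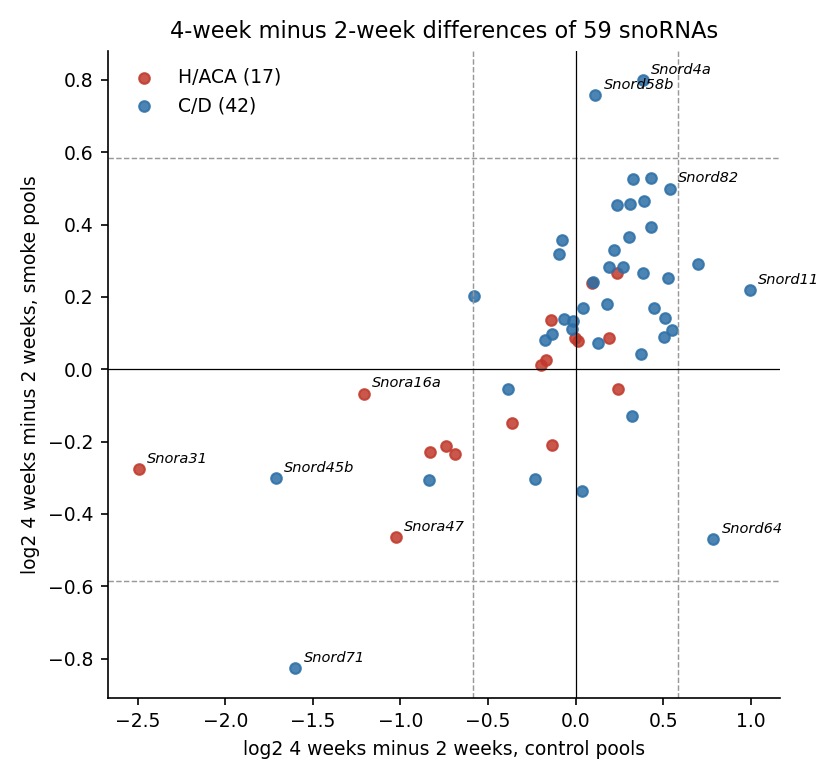
Log2 4 weeks minus 2 weeks of each of the 59 snoRNAs in control pools (horizontal) and in smoke pools (vertical), red for H/ACA and blue for C/D; dashed lines mark 1.5-fold. Most C/D points lie at the upper right, and Snord71 is the only snoRNA past 1.5-fold in both pairs, at −1.60 in controls and −0.83 in smoke.

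Other noncoding RNAs were read in the same pools, beside 4.09% of all genes past 1.5-fold between controls. Between controls, 32 of 34 features of the RefSeq class rRNA were past 1.5-fold, with a median of −0.64 log2, and among 5 small Cajal body RNAs, relatives of snoRNAs that guide changes in spliceosomal RNA, the median was −0.41 log2 with 2 past 1.5-fold. The 316 microRNA genes had a median of −0.18 log2, with 8.54% past 1.5-fold, and the 39 ribosomal protein genes had a median of 0.04 log2 with 0 past 1.5-fold. Between the smoke pools, where 3.14% of all genes were past 1.5-fold, 0 of the 34 rRNA features and 0 of the 5 small Cajal body RNAs were, and the medians were −0.23 log2 for rRNA, 0.07 log2 for small Cajal body RNAs, 0.08 log2 for microRNA genes and 0.16 log2 for ribosomal protein genes. Of 4 heart muscle markers, Nppa was 2.24 log2 and Tnnt2 0.44 log2 higher at 4 weeks between the controls, while Myh6 differed by −0.20 and Myl7 by −0.10 log2. What part RNA recovery, other tissue or the arrays had in the snoRNA differences was not tested.

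Host genes were set beside the snoRNAs that lie in them. For 45 snoRNAs above the floor a host was measured too, 39 hosts in all, 24 of them on a feature of their own and 15 on a feature with several symbols. Some of the latter features also carry the symbol of a snoRNA, as for Snhg12, Snhg3, Rabggtb, Rpl13a and 2410006H16Rik, so these host values are not separate from snoRNA annotation. Between the control pools 11 of the 45 snoRNAs and 0 of the hosts were past 1.5-fold, beside 4.09% of all genes, so that the count of hosts is near the background, and the median size of the difference was 0.37 log2 for snoRNAs and 0.09 log2 for hosts, which ranged from −0.34 to 0.41. With smoke, the median size was 0.13 log2 for snoRNAs and 0.06 log2 for hosts at 4 weeks, and 0.14 and 0.07 log2 at 2 weeks. Over all genes the median size was 0.14 log2 at 4 weeks, 0.11 log2 at 2 weeks and 0.14 log2 between controls, so with smoke the snoRNAs were near the size of all genes. The sign was that of the host in 23 of 45 between controls, in 24 of 45 with smoke at 4 weeks and in 22 of 45 at 2 weeks.

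Several snoRNAs far from 0 lay in hosts close to it. Between the 4-week and the 2-week control pool, Snora31 differed by −2.49 log2 and Tpt1 by −0.04, and Snord45b differed by −1.71 and Rabggtb by −0.03. Snora16a differed by −1.21 log2 and Snhg12, whose start is printed above, by −0.02. Snora47 differed by −1.03 log2 and Zbed3 by 0.02, and Snord35a differed by 0.70 log2 and Rpl13a by 0.19. Hosts were further from 0 for Snord11, which differed by 0.99 log2 with Nop58 at −0.31, and for Snora19, which differed by −0.74 log2 with Eif3a at −0.31. Snord71 (−1.60 log2) was set beside no host, since it lies in the span of 2 genes.

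**Figure D5:**
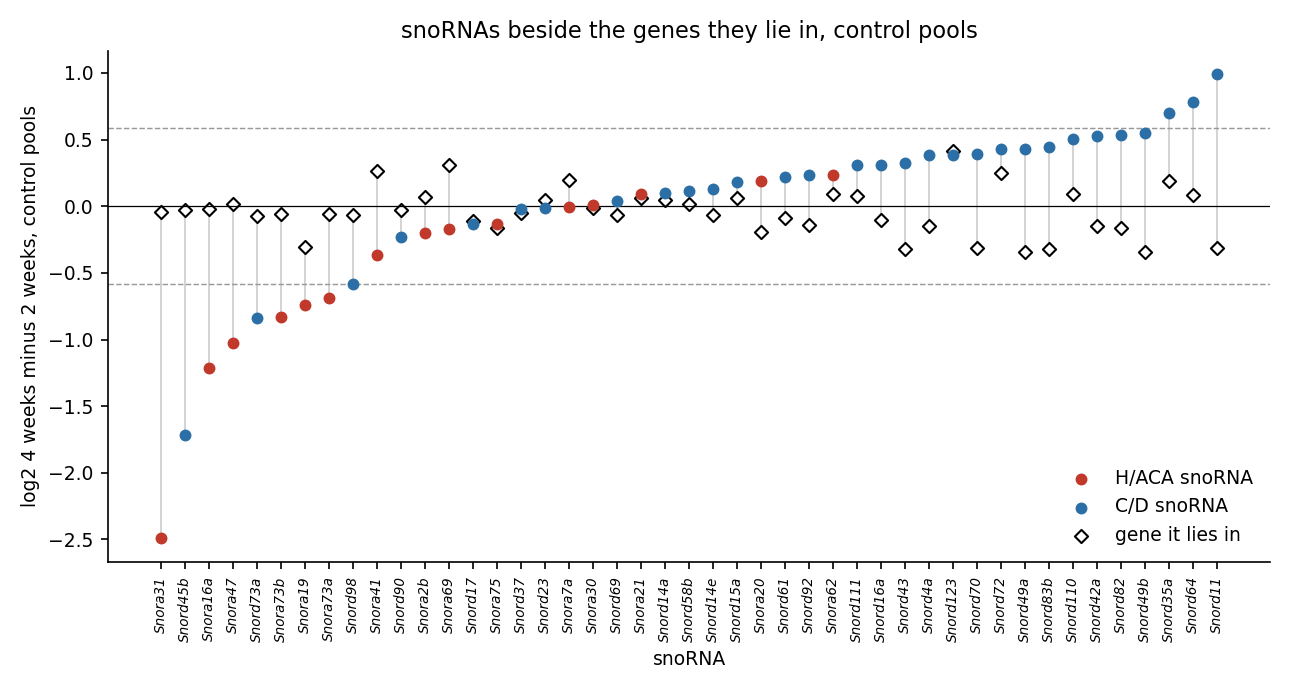
Log2 4 weeks minus 2 weeks in control pools for 45 snoRNAs (red H/ACA, blue C/D), ordered by value, and for the gene each lies in (open diamonds); dashed lines mark 1.5-fold. Hosts lie between −0.34 and 0.41, while snoRNAs reach from −2.49 to 0.99.

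Where a pair of snoRNAs shared a host, the pair could be read against the same transcript. In Ncl, between the control pools, Snora75 differed by −0.13 log2, Snord82 by 0.54 log2 and Ncl itself by −0.16 log2. In Nop58, Snord11 differed by 0.99 log2 and Snord70 by 0.39 log2, with −0.31 log2 for Nop58. In Rpl3, Snord43 and Snord83b differed by 0.33 and 0.45 log2, with −0.32 log2 for Rpl3, and in Rpl23a, Snord42a and Snord4a differed by 0.53 and 0.38 log2, with −0.15 log2 for Rpl23a. Snord49a and Snord49b, in 2410006H16Rik, differed by 0.43 and 0.55 log2, with −0.34 log2 for the host feature. In these 5 genes the H/ACA snoRNA of Ncl was the only snoRNA with the sign of its host. Snora73a and Snora73b, the H/ACA pair of Snhg3, differed by −0.69 and −0.83 log2, with −0.06 log2 for the feature read as Snhg3. That feature is annotated to Snora73a as well, so it is no separate reading of the host, and the 2 features that name Snora73a disagree.

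A further 42 features carried a snoRNA symbol together with other symbols, usually the host's, and were left out of the snoRNAs described. Some of them served above as the feature of a host, as for Snhg12, Snhg3, Rabggtb, Rpl13a and 2410006H16Rik. On these features 49 snoRNA symbols occurred that had no feature of their own, with Snord47 of Gas5 among them. Of these 42 features 0 were past 1.5-fold with smoke at 4 weeks, 0 at 2 weeks and 1 between the controls, which was the Snora19 feature shared with Mir3084. Over all genes these shares were 4.04%, 3.04% and 4.09%, so the counts are near the background for 42 features.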

How the data were processed

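Per the labels' protocols, total lung RNA came from RNeasy Mini columns and was labelled with the GeneChip WT PLUS kit. The deposited values are RMA intensities on a linear scale, made per the submitters' processing notes in Affymetrix Expression Console 1.4.1. Not given in the sources used here are the genome build, detection calls and the base of the linear scale. A log2 table had been foreseen, so log2 was taken; base e would multiply every log2 difference by 0.693. Between 541 and 581 features per array exceeded 65535. Array medians ran from 58.8 to 61.7, and the number of arrays limits precision. Of 65956 features, 30604 had 1 distinct symbol in the platform annotation, 2146 several, and 33206 were not listed; 22818 were matched by Entrez ID to RefSeq (GRCm38.p6), and all 62 snoRNAs had an entry there.

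Samples were grouped by title. limma 3.58.1 (R 4.3.3; lmFit and eBayes, prior df 5.38, residual df 1) was fitted to all genes above the floor and tested on simulated data; nothing shows separate pools of a group, so p-values measure only the spread between these 4 pools. Tables and figures used Python 3.11.15, pandas 2.3.3 and matplotlib 3.10.9. Single differences were counted past 1.5-fold without a test. The snoRNAs, lists and tests were chosen with earlier results of these data known. Single snoRNAs were named by rule: the most positive and negative smoke differences (8 each way of like sign in both experiments, 4 each way per duration), 4 each way between controls, and the 5 brightest features of each class. The core proteins and the lists of precursor-processing and Rpl13a snoRNAs were named whole where measured, and from each other list the 2 extremes each way. Snora19, Snord4a, Snord70, Snord72 and Snord82 were named after their values were seen. Alternatives were other scalings, floors, folds, features per symbol, fits without duration and leaving out each pool.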

Additional observations from a re-analysis of the deposited data

Results flagged for a closer look

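Several snoRNAs drew attention because their smoke difference at 4 weeks and at 2 weeks pointed opposite ways, with 1 pool per group, and 1 of the differences at least was past 1.5-fold. The change between the durations, the 4-week minus the 2-week smoke difference, was not tested. It was 2.22 log2 for Snora31 (1.73 at 4 weeks and −0.48 at 2 weeks) and 1.41 log2 for Snord45b (0.42 and −0.99). For Snord58b it was 0.65 log2 (0.63 and −0.01). For Snord64 it was −1.25 log2 (−0.73 and 0.52), and for Snord11 −0.77 log2 (−0.13 and 0.64).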

How the results depend on the processing

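Of 175 values under other settings, 2 turned sign and 17 moved: counts by over 1.5 times, class medians by over 0.1 log2. The other 156 kept within these limits or, for single snoRNAs, kept sign and side of the threshold, whatever their size. The smoke test called 265 genes, but 8 with median centring, 24 with cyclic loess (all higher with smoke under both), 0 without the duration term, and 0 to 34 with 1 pool left out (which also drops the duration term and takes the lone pool to vary like the others); 0 snoRNAs were called in each of these fits. The lowest adjusted p (limma) of 8 snoRNAs followed through the settings was 0.0642. With 1 pool left out the effects ran, in log2, from 0.0298 to 1.24 for Snora16a, −0.374 to −0.185 for Snora20, −0.702 to −0.313 for Snord13, 0.0337 to 0.491 for Snord16a, 0.0795 to 0.608 for Snord42a, 0.09 to 0.617 for Snord43, 0.118 to 0.421 for Snord90 and −0.786 to 0.0523 for Snord73a, which alone turned (without the 2-week control pool). No single difference can be had without 1 of its pools. SnoRNAs past 1.5-fold numbered 4 with smoke at 4 weeks, but 2 if the linear scale has base e, 2 at 2-fold and 15 against the 2-week control (added after seeing the data); 4 at 2 weeks, but 1 with base e and 0 at 2-fold; and 12 between controls, but 6 with base e and 5 at 2-fold. The H/ACA minus C/D median was −0.398 log2 between controls and −0.276 with base e; with smoke it was 0.0074 at 4 weeks, turning to −0.0222 with cyclic loess, and −0.147 at 2 weeks, where it ran from −0.205 to −0.102. The duration term called 0 genes, but 331 genes and 3 snoRNAs with the 60th-percentile floor. The cause of these moves was not tested. At the higher floor fewer genes were tested and the error was also estimated anew. No paired analysis was possible because each group held 1 array, beyond the duration term, which sets each smoke pool beside the control of its own duration. Small differences of dim features cannot be judged without detection values.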
